A study of Triticum turgidum with 12 samples.

Results

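A set of 5 probe sets for chlorophyll-binding proteins and for the entry into chlorophyll synthesis were followed in durum wheat flag leaves: Ta.3249.3.A1_at and Ta.23025.1.A1_at, both named LHB1B2, Ta.23419.1.S1_x_at and Ta.18362.1.A1_at, both named ELIP1, and Ta.3243.1.S1_at, named HEMA1. They are 5 of the 61290 probe sets of the array, and all 5 passed the filter on low signals that kept 24590. They were chosen by their own signals on these arrays, since the study listed them among genes whose response to water stress differed by genotype, so their levels and differences are given as a description with no p-value. The arrays came from plants of the Borgia pale-green mutant MD-597 and of its wild-type mother variety Borgia, both under water stress (irrigation reduced from Zadoks stage 45, booting) and under control conditions (soil kept at field capacity), with 3 arrays in each of the 4 groups. The mutant descends from 1 plant found after sodium azide treatment of Borgia, was repeatedly backcrossed to its parent, and probably carries a recessive nuclear mutation that was not identified. All leaves were sampled at anthesis, and each replicate was a pool of flag leaves from 5 plants of a split-plot glasshouse experiment, so the spread given here is between pools.

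LHB1B2 is an Arabidopsis name for a chlorophyll a/b binding protein of light-harvesting complex II (LHCII), the main antenna of photosystem II, which passes absorbed light energy to the reaction centre. ELIP1 is an early light-inducible protein, a thylakoid relative of the antenna proteins that accumulates transiently when a leaf meets excess light. HEMA1 is glutamyl-tRNA reductase, which commits glutamate to the tetrapyrrole pathway that makes chlorophyll and haem. The gene names are those of the closest Arabidopsis proteins. Antenna proteins form a large gene family and durum wheat carries homoeologous copies of most genes, so a probe set may report several copies together, and a name ending in _x_at marks probes that match more than 1 transcript.

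Signals were the MAS5 intensities deposited by the authors, and differences are on the log2 scale, where 1 is a doubling. Differences carry the standard error (SE) of a limma fit to all 12 arrays. That SE rests on a spread shared by all groups, so it can be too wide or too narrow for a pair of groups with unlike spread. A probe set was called when its Benjamini-Hochberg adjusted p was under 0.05 and its difference reached 2-fold, with p-values adjusted over every kept probe set. In bulk leaf RNA, fewer cells of a type and less RNA per cell cannot be told apart. The label of the tissue was checked on mesophyll transcripts. The Rubisco small subunit ranked between the 83.2 and 96.6 percentiles of all probe sets of an array. LHB1B2 Ta.3249.3.A1_at, the brightest probe set of that name, ranked between the 95.7 and 99.4 percentiles. LHB1B2 Ta.23025.1.A1_at ranked only between the 53.0 and 84.1 percentiles, and the other LHB1B2 probe sets listed by the study between 87.28 and 98.05. Ta.3249.3.A1_at and Ta.23025.1.A1_at are among the probe sets followed here, chosen by their own signals. The probe set of the plastid-encoded Rubisco large subunit ranked lower, between the 33.0 and 77.5 percentiles.

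Some arrays stood apart from the others. On mutant water stress replicate 3, 181 kept probe sets lay over 4-fold below both other replicates, against 28 to 77 on the other 11 arrays. The 3' to 5' signal ratio of glucose-6-phosphate dehydrogenase, a control transcript probed at both ends, reached 15.2 there, 15.7 on replicate 2 of the stressed wild-type, and 4.46 to 10.6 on the rest. Among the 1787 probe sets called between wild-type water stress and control, wild-type water stress replicate 1 was the stress array nearest to the controls for 48.2% and replicate 2 the farthest for 862. Measures of the arrays themselves also moved with the groups. Poly-A control transcripts, which are added to the RNA before labelling, had mean log2 signals of 8.71 to 9.55 in mutant water stress and 8.20 to 8.63 in mutant control, and of 8.88 to 9.28 in wild-type water stress and 8.23 to 8.67 in wild-type control, so that every stress array lay above every control array. The median signal was 62.7 to 66.5 in mutant water stress, above the 50.5 to 58.8 of all other arrays. The part of these measures in the differences below was not tested. Quantile normalization, which gives all arrays 1 distribution of signals, changed no call of the 5 probe sets. It does not adjust single transcripts for the 3' to 5' ratio or for labelling, so it is no test of that part.

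HEMA1 had higher mean signals under water stress, with the larger difference in the mutant, although the interaction was not called. Ta.3243.1.S1_at read 18430, 15351 and 20054 on the mutant water stress arrays, and 5722, 6950 and 5958 on the mutant control arrays. All 3 stressed mutant pools lay above all mutant controls, with a difference of 1.53 ± 0.22 (SE), a 2.88-fold higher signal. Wild-type signals were 6706, 15141 and 11201 under water stress, and 6521, 6000 and 6093 under control. The wild-type groups did not overlap either, but replicate 1 stood only slightly above the highest control, and the difference was 0.75 ± 0.22. Leaving out wild-type water stress replicate 1 gave 1.07, which passed the call rule, and leaving out replicate 2 gave 0.48. Under water stress the mutant exceeded the wild-type by 0.77 ± 0.22 with no overlap of the groups, although the lowest mutant array (15351) and the highest wild-type array (15141) were close. That difference was 0.45 without wild-type water stress replicate 1 and 1.04, past the call rule, without replicate 2. Under control the genotypes overlapped and differed by -0.003 ± 0.218. In order of mean log2 signal, mutant water stress (14.12 ± 0.20, SD, n = 3) was followed by wild-type water stress (13.35 ± 0.59), and the 2 control groups, at 12.60 ± 0.15 (mutant) and 12.60 ± 0.06 (wild-type), did not differ beyond their spread.

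LHB1B2 followed the same order in its brighter probe set. Ta.3249.3.A1_at read 20096, 15881 and 17183 on the mutant water stress arrays, and 4780, 7330 and 5262 on the mutant control arrays. Every stressed mutant pool lay above every array of the other 3 groups, and the difference from the mutant control was 1.63 ± 0.26, or 3.10-fold. The wild-type arrays read 4585, 11612 and 8797 under water stress, and 6455, 6753 and 6413 under control. The wild-type controls lay within a narrow band, while the stressed wild-type pools lay on both sides of it, replicate 1 below and replicates 2 and 3 above. The wild-type difference was 0.25 ± 0.26, and it turned to -0.04 without wild-type water stress replicate 2 and to 0.63 without replicate 1. Under water stress the mutant was 1.18 ± 0.26 above the wild-type, between 0.80 without wild-type water stress replicate 1 and 1.47 without replicate 2. Under control the genotypes overlapped, with a difference of -0.20 ± 0.26. Mutant control, wild-type control and wild-type water stress, at 12.48 ± 0.32, 12.68 ± 0.04 and 12.92 ± 0.69, did not differ beyond their spread.

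The second LHB1B2 probe set, Ta.23025.1.A1_at, was dim and had another pattern. It read 901, 235 and 178 on the mutant water stress arrays, and 240, 233 and 196 on the mutant control arrays. The high mean of the stressed mutant rested on replicate 1: the difference from the mutant control was 0.59 ± 0.49 and turned to -0.12 without that array. In the wild-type it read 103, 212 and 201 under water stress, and 88.7, 83.9 and 66.1 under control. The wild-type groups did not overlap, with a difference of 1.05 ± 0.49, which passed the call rule only without mutant water stress replicate 1, an array that enters only the shared estimate of spread. This was the only one of the 5 probe sets whose genotypes did not overlap under control, where the mutant was 1.49 ± 0.49 above the wild-type. That SE takes in the wide spread of mutant water stress (SD 1.25), whereas the control groups had SDs of 0.16 (mutant) and 0.23 (wild-type). With only the compared arrays the difference was called. It was 1.20 with an offset of 32 added to the signals. All wild-type control arrays read the probe set between the 53.0 and 58.8 percentiles of their array, under the filter's percentile of 60. Under water stress the mutant was 1.04 ± 0.49 above the wild-type, and 0.32 without mutant water stress replicate 1. In order of mean, mutant water stress (8.39 ± 1.25), mutant control (7.80 ± 0.16) and wild-type water stress (7.35 ± 0.58) overlapped from one to the next, and only wild-type control (6.30 ± 0.23) stood below without overlap.

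**Figure D1:**
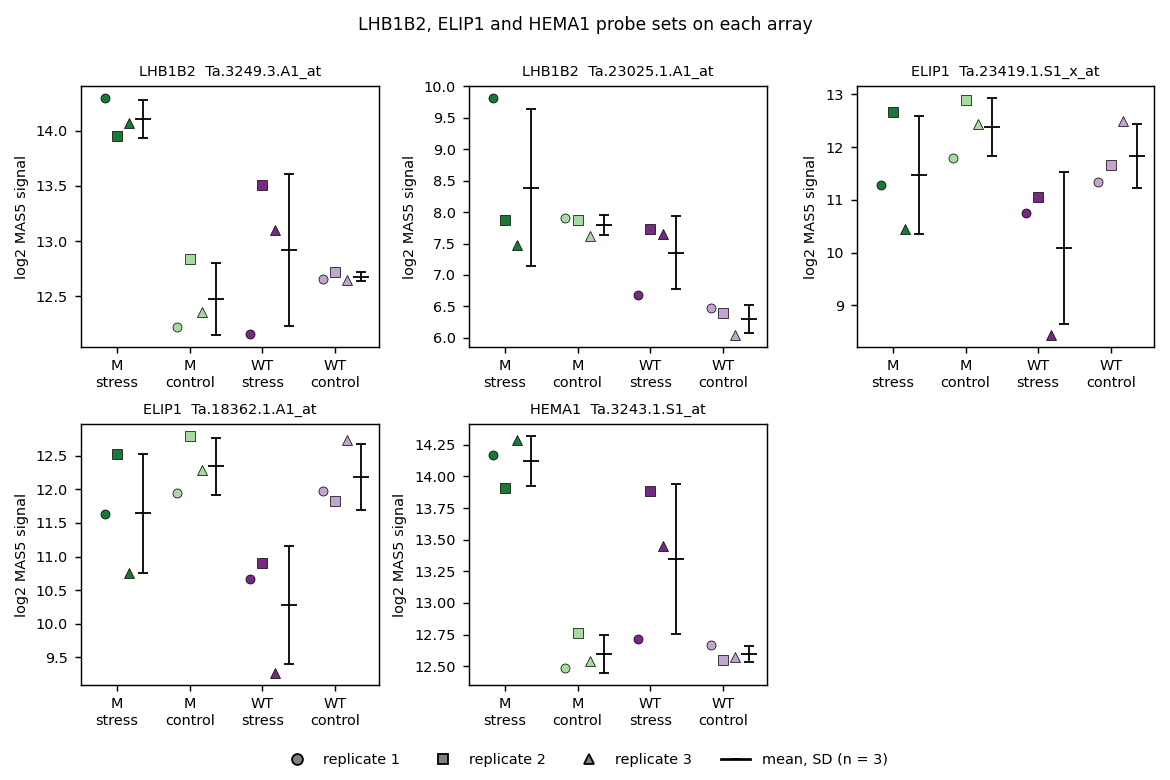
Log2 MAS5 signal (vertical axes, each with its own range) of the 5 probe sets on each array, by group, with mutant (M) groups left of wild-type (WT) groups and stress left of control. Symbols are replicates, and bars are the group mean with SD (n = 3). For HEMA1 and LHB1B2 Ta.3249.3.A1_at the 3 mutant water stress arrays are above all other arrays, and for both ELIP1 probe sets replicate 3 is the lowest array of each water stress group.

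ELIP1 went the other way: its mean signals were lower under water stress, with the larger difference in the wild-type. In the mutant the groups overlapped, and the interaction was called for neither probe set. Ta.18362.1.A1_at read 3175, 5918 and 1738 on the mutant water stress arrays, and 3926, 7095 and 5024 on the mutant control arrays. These groups overlapped, with a difference of -0.70 ± 0.46. Wild-type signals were 1634, 1911 and 618 under water stress, and 4022, 3651 and 6840 under control. All stressed wild-type pools lay below all wild-type controls, with a difference of -1.90 ± 0.46, a 3.73-fold lower signal. Under water stress the mutant was 1.36 ± 0.46 above the wild-type, and a single mutant array (1738) lay below the highest wild-type array. This genotype difference was 0.86 without wild-type water stress replicate 3 and 1.80, past the call rule, without mutant water stress replicate 3. Under control the genotypes overlapped and differed by 0.16 ± 0.46.

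The second ELIP1 probe set, Ta.23419.1.S1_x_at, had the same order of groups with wider spreads. It read 2497, 6513 and 1402 on the mutant water stress arrays, and 3572, 7633 and 5557 on the mutant control arrays. The difference was -0.91 ± 0.65, with the groups overlapping. The wild-type arrays read 1736, 2134 and 348 under water stress, and 2577, 3222 and 5793 under control. The wild-type groups did not overlap, and the difference was -1.74 ± 0.65. The mutant was 1.38 ± 0.65 above the wild-type under water stress and 0.55 ± 0.65 above it under control, with overlap in both. Without wild-type water stress replicate 3 the difference under stress was 0.56. For both probe sets the order of means was mutant control, wild-type control, mutant water stress and wild-type water stress, and every neighbouring pair in that order overlapped.

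Replicate pools differed more for ELIP1 than for most transcripts. The SD of Ta.23419.1.S1_x_at was 1.12 in mutant water stress, 0.55 in mutant control, 1.43 in wild-type water stress and 0.60 in wild-type control, larger than the SD of 94.8% to 99.2% of kept probe sets in the same group. For Ta.18362.1.A1_at the SD exceeded that of 89.7% to 97.6%. Replicate 3 was the lowest array in both water stress groups for both probe sets, and replicate 2 the highest. Without wild-type water stress replicate 3, the wild-type difference of Ta.18362.1.A1_at was -1.40 and that of Ta.23419.1.S1_x_at -0.92. For Ta.23419.1.S1_x_at the difference, -1.74 with all arrays, passed the call rule without wild-type water stress replicate 2 (-2.23) or without mutant water stress replicate 3. Without mutant water stress replicate 3, the mutant differences were -0.26 and -0.40, and without mutant water stress replicate 2 they were -1.14 and -1.51. For HEMA1 and LHB1B2 Ta.3249.3.A1_at the SD in wild-type control (0.06 and 0.04) exceeded that of only 15.3% and 6.59% of kept probe sets, whereas in wild-type water stress (0.59 and 0.69) it exceeded that of 93.0% and 95.3%.

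Counted over the 5 probe sets, 2 were called between mutant water stress and mutant control, HEMA1 and LHB1B2 Ta.3249.3.A1_at, both higher, where 8.91% of all kept probe sets were called. Between wild-type water stress and wild-type control 1 was called, ELIP1 Ta.18362.1.A1_at, lower, beside 7.27% of all kept. Between mutant and wild-type under water stress 1 was called, LHB1B2 Ta.3249.3.A1_at, higher in the mutant, beside 0.708% of all kept. None was called between the genotypes under control, where 0.0% of all kept were called by limma (1300 had an unadjusted p under 0.05, and the methods' t-test called 0), and none in the interaction (the stress difference in the mutant minus that in the wild-type), beside 0.159% of all kept. Groups without overlap were found for 2 of the 5 in the mutant under stress against control (42.9% of all kept), for 4 of the 5 in the wild-type (43.1%), for 2 of the 5 between genotypes under water stress (19.0%) and for 1 of the 5 under control (14.2%). The call of LHB1B2 Ta.3249.3.A1_at between genotypes was lost without wild-type water stress replicate 1 or 3, mutant water stress replicate 1 or 2 or wild-type control replicate 1 or 2, with values of 0.80 to 1.47 over all arrays left out in turn. Nothing is read from these counts, since the same contrasts chose the probe sets.

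The interaction values were 1.38 ± 0.37 for LHB1B2 Ta.3249.3.A1_at, -0.46 ± 0.69 for LHB1B2 Ta.23025.1.A1_at, 1.20 ± 0.65 for ELIP1 Ta.18362.1.A1_at, 0.83 ± 0.92 for ELIP1 Ta.23419.1.S1_x_at and 0.78 ± 0.31 for HEMA1. A positive value stands for a stress difference that was more positive in the mutant for LHB1B2 and HEMA1, and less negative in the mutant for ELIP1. With replicate 3 of mutant water stress and replicate 2 of wild-type water stress left out together, which was decided on after seeing the data, they were 1.69, 0.19, 1.95, 1.82 and 0.96. All 5 were higher than with all arrays, and the sign of Ta.23025.1.A1_at changed. Single arrays moved them downward as well. Without wild-type water stress replicate 3 the interaction was 0.007 for ELIP1 Ta.23419.1.S1_x_at and 0.70 for Ta.18362.1.A1_at. Without wild-type water stress replicate 1 it was 0.46 for HEMA1 and 1.00 for LHB1B2 Ta.3249.3.A1_at, and without replicate 2 it was 1.67 for the last, past the call rule. For LHB1B2 Ta.23025.1.A1_at it was -1.17 without mutant water stress replicate 1.

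A further 5 probe sets belong to the same sequence clusters, as their names show, and were not among the chosen ones. They are no independent genes, since members of a cluster can share sequence and probes, and Ta.3243.1.S1_x_at and Ta.3249.2.S1_x_at were listed by the study as well. P-values given for these listed probe sets describe the fit and are no independent support. HEMA1 Ta.3243.1.S1_x_at read 16362, 15605 and 18542 in mutant water stress, and 5342, 6607 and 5462 in mutant control. In the wild-type it read 6797, 13597 and 9823 under water stress, and 5760, 5439 and 5889 under control. It repeated the order of arrays within the wild-type water stress group, with replicate 1 lowest and replicate 2 highest. The rise in the mutant was 1.54 ± 0.19 (limma, adjusted p = 0.000108) and the difference in the wild-type 0.77 ± 0.19, which passed the adjusted p (0.011) but not the 2-fold limit. Between genotypes under water stress it differed by 0.79 ± 0.19 (limma, adjusted p = 0.0419), also under 2-fold, and the interaction was 0.77 ± 0.27 (limma, adjusted p = 0.274). Without wild-type water stress replicate 1 the wild-type difference was called (1.02), and without replicate 2 the genotype difference under stress (1.04) and the interaction (1.02) were.

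LHB1B2 Ta.3249.2.S1_x_at read 5438, 4225 and 3637 in mutant water stress, and 1966, 1943 and 1640 in mutant control. Wild-type signals were 1368, 3645 and 2147 under water stress, and 1702, 1503 and 1774 under control. It rose by 1.25 ± 0.27 in the mutant (limma, adjusted p = 0.00425), while the wild-type difference of 0.41 ± 0.27 did not pass (limma, adjusted p = 0.292). Between genotypes under water stress it differed by 0.99, and was called without wild-type water stress replicate 2 (1.35) or without mutant water stress replicate 3 (1.12). Ta.3249.1.S1_at, under the filter, read 253, 87.0 and 97.3 in mutant water stress, and 34.5, 53.5 and 28.6 in mutant control. The wild-type arrays read 36.3, 42.2 and 82.5 under water stress, and 32.6, 36.3 and 37.5 under control. Only the stressed mutant stood above every array of the other groups, and narrowly (87.0 against 82.5). In the fit with no filter the mutant difference was 1.78 ± 0.53 (limma, adjusted p = 0.0452). The wild-type difference of 0.50 ± 0.53 did not pass there (limma, adjusted p = 0.715).

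For ELIP1, Ta.23419.3.S1_x_at read 300, 566 and 86.3 in mutant water stress, and 353, 535 and 362 in mutant control. In the wild-type it read 125, 227 and 24.5 under water stress, and 260, 248 and 591 under control. Replicate 3 was again the lowest array of both stress groups, and the stressed wild-type again lay below all its controls. The wild-type difference of -1.92 ± 0.76 did not pass with all arrays (limma, adjusted p = 0.0866), but was called without wild-type water stress replicate 2 (-2.60) or without mutant water stress replicate 3. The mutant difference of -0.74 ± 0.76 did not pass (limma, adjusted p = 0.492). Ta.18362.2.S1_at, under the filter, read 120, 130 and 28.3 in mutant water stress, and 40.3, 139 and 120 in mutant control. Wild-type signals were 43.02, 42.1 and 34.0 under water stress, and 114, 97.9 and 71.2 under control. The wild-type groups did not overlap, as was so for 43.1% of all kept probe sets. In the fit with no filter the wild-type difference of -1.23 ± 0.59 did not pass (limma, adjusted p = 0.289). No further probe set shares the cluster of Ta.23025.1.A1_at.

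**Figure D2:**
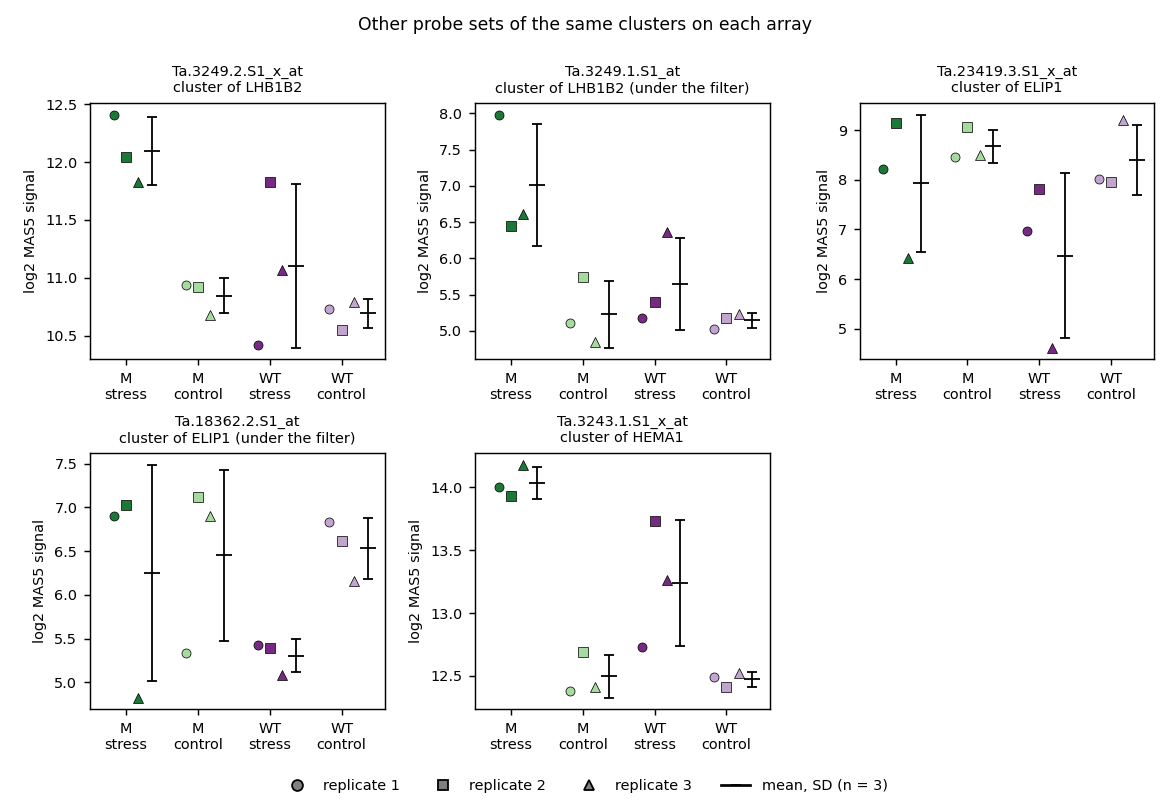
Log2 MAS5 signal (vertical axes, each with its own range) of the 5 other probe sets of the same clusters, by group, with symbols for replicates and bars for the group mean with SD (n = 3). The LHB1B2 and HEMA1 clusters are highest in the mutant water stress arrays, where only wild-type water stress replicate 2 of Ta.3249.2.S1_x_at (3645) reaches the lowest of them (3637), and the 2 ELIP1 probe sets are lower in all wild-type water stress arrays than in wild-type control.

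The study placed these genes in a section on photosynthesis and pigment synthesis, which with the thylakoid ascorbate peroxidase TAPX held 13 further probe sets, all kept. TAPX came from the study's section on detoxification, many of whose other probe sets the study listed as downregulated in the mutant. Those others were not taken into the list. The study chose the probe sets of this list on these same arrays, so neither its direction nor its p-values and counts of calls are independent evidence. Under water stress 12 of the 13 rose in the mutant and 1 fell (limma), with a median difference of 1.45, where the median of all kept probe sets was 0.04 and 8.91% of them were called. In the wild-type 1 of the 13 was called, higher, with a median of 0.59 beside 0.01 over all kept, of which 7.27% were called. Under the methods' t-test, adjusted by Benjamini-Hochberg, 1 of the 13 was called in the mutant, against 0 for the wild-type.

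The other antenna probe sets of the list rose in the mutant, as Ta.3249.2.S1_x_at did. Ta.28496.1.A1_x_at, also LHB1B2, read 7442, 4865 and 4750 in mutant water stress, and 1577, 2168 and 1256 in mutant control. It rose by 1.78 ± 0.29 (limma, adjusted p = 0.000871), and in the wild-type the difference was 0.82 ± 0.29 (limma, adjusted p = 0.0617). Ta.30702.1.S1_x_at, the last LHB1B2 probe set, rose by 1.72 ± 0.32 in the mutant (limma, adjusted p = 0.00169) beside 0.87 ± 0.32 in the wild-type (limma, adjusted p = 0.0654). Both wild-type differences were called without wild-type water stress replicate 1, at 1.22 and 1.26, whereas that of LHB1B2 Ta.3249.3.A1_at (0.25 with all arrays) was not called without any array. Of the 5 LHB1B2 probe sets, Ta.23025.1.A1_at was the one whose stress difference with all arrays was larger in the wild-type than in the mutant. Its interaction of -0.46 ± 0.69 was not called, and was -0.002 without mutant water stress replicate 3.

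Carbon fixation and energy genes of the list rose in the mutant, apart from the probe set of the Rubisco large subunit. The Rubisco small subunit, nuclear-encoded, rose by 1.31 ± 0.36 in the mutant (limma, adjusted p = 0.0172), a call lost without mutant water stress replicate 1 or without mutant control replicate 3, and differed by 0.32 ± 0.36 in the wild-type. The plastid-encoded Rubisco large subunit had a dim probe set, between the 33.0 and 77.5 percentiles of an array. How well it measures that transcript was not tested. The probe set read 49.0, 28.7 and 134 in mutant water stress, and 457, 116 and 250 in mutant control. It was the member that fell, by 2.05 ± 0.56 on the log2 scale in the mutant (limma, adjusted p = 0.0157), but 1 stressed array overlapped the controls and the call was lost without mutant control replicate 1 or without mutant water stress replicate 2. ATPD, the delta subunit of the chloroplast ATP synthase, rose by 1.57 ± 0.14 and 1.29 ± 0.12 in its 2 probe sets in the mutant (limma, adjusted p = 1.6e-05 and 1.89e-05). In the wild-type the ATPD differences of 0.59 ± 0.14 and 0.69 ± 0.12 passed the adjusted p (0.0103 and 0.00138) but not the 2-fold limit.

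Genes that the study assigned to the synthesis of carotenoid precursors rose with HEMA1 in the mutant, MVA1 in both genotypes alike. DXS, the first enzyme of the plastid isoprenoid pathway, rose by 1.66 ± 0.21, and PSY, which makes phytoene, the first carotenoid, by 1.12 ± 0.14 (limma, adjusted p = 0.000159 and 0.00012). In the wild-type the difference of 0.59 ± 0.21 for DXS and that of 0.40 ± 0.14 for PSY did not pass (limma, adjusted p = 0.0644 and 0.055). The PSY groups did not overlap, as was so for 43.1% of all kept probe sets in the wild-type. MVA1, the hydroxymethylglutaryl-CoA synthase of the cytosolic isoprenoid pathway, rose in both genotypes, by 1.44 ± 0.35 in mutant plants and by 1.43 ± 0.35 in wild-type plants (limma, adjusted p = 0.00908 and 0.0111), the one call of the list in the wild-type. TAPX, which removes hydrogen peroxide at the thylakoid, rose by 1.45 ± 0.20 and 1.67 ± 0.24 in its 2 probe sets in the mutant (limma, adjusted p = 0.000253 and 0.00029). The wild-type differences of TAPX were 0.44 ± 0.20 and 0.66 ± 0.24 and did not pass (limma, adjusted p = 0.132 and 0.06). In the second the groups did not overlap, beside that same share of all kept.

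**Figure D3:**
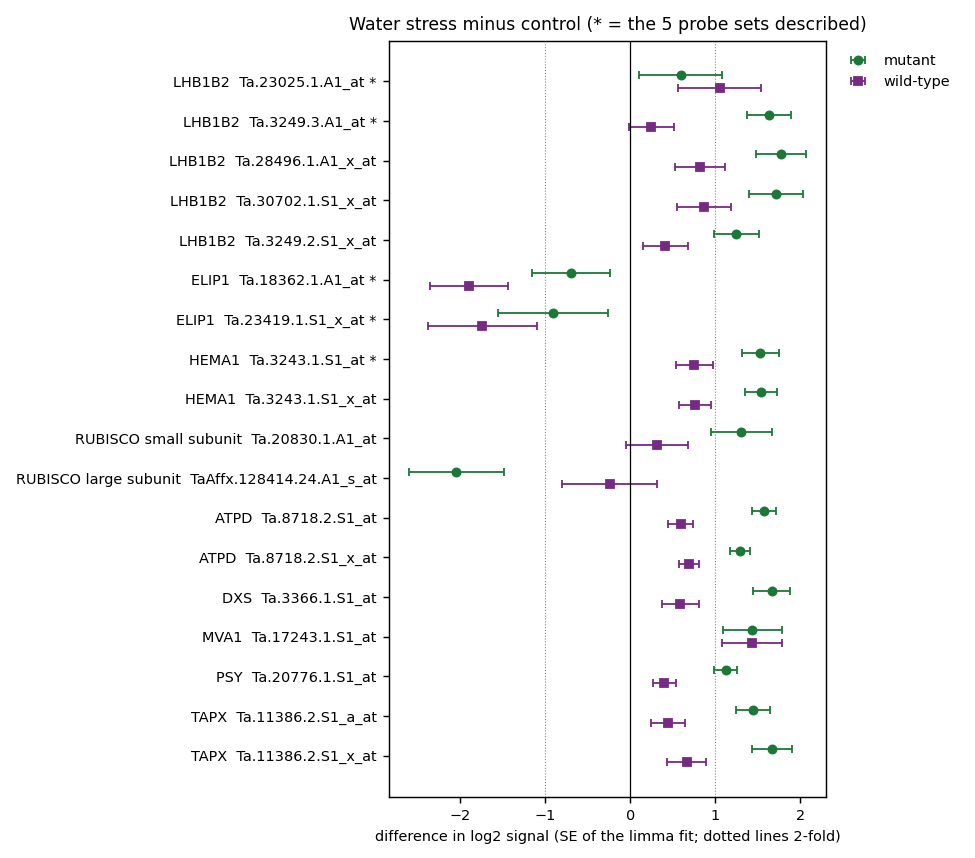
Water stress minus control in log2 signal (horizontal axis), with the SE of the limma fit, for the 5 probe sets described (marked *) and the 13 others of the list, mutant as green circles above wild-type as purple squares. Dotted lines mark 2-fold. Apart from Ta.23025.1.A1_at, MVA1 and the Rubisco large subunit, the mutant points lie to the right of the wild-type points.

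Tests of the genotype difference itself were weaker. The study chose the list on these same arrays, so shares above those of all kept probe sets are no independent evidence. Under water stress 12 of the 13 list probe sets had higher means in the mutant, with a median of 0.80, but none was called by limma. Of these 13, 12 had an unadjusted p under 0.05, beside 17.4% of all kept probe sets, and 4 passed the adjusted p without the 2-fold difference (both ATPD probe sets, HEMA1 Ta.3243.1.S1_x_at and DXS), beside 2.89% of all kept at any fold. The methods' t-test called 0, and 2 of the 13 had an unadjusted p under 0.05 by it, beside 8.3% of all kept. The interaction was called for 0 of the 13 by limma, with 10 at an unadjusted p under 0.05 (11.6% of all kept), a median of 0.85 and values from -1.80 to 1.07. None of the 13 passed the adjusted p at any fold, where 0.277% of all kept did, and the smallest was 0.0617, for ATPD Ta.8718.2.S1_at (0.98 ± 0.20). Under control no probe set of the list passed even at an unadjusted p under 0.05 by limma or by the methods' t-test, with differences from -0.28 to 0.19. With the same 2 arrays left out (replicate 3 of mutant water stress and replicate 2 of wild-type water stress), 7 of the 13 were called between genotypes under water stress and 4 in the interaction, where the share of all kept probe sets called was 1.94% and 1.48%, against 0.708% and 0.159% with all arrays. Leaving out wild-type water stress replicate 2 alone gave genotype calls under stress for LHB1B2 Ta.30702.1.S1_x_at (1.33), LHB1B2 Ta.3249.2.S1_x_at (1.35), HEMA1 Ta.3243.1.S1_x_at (1.04) and DXS (1.07). Leaving out mutant water stress replicate 3 alone gave them for LHB1B2 Ta.3249.2.S1_x_at (1.12), TAPX Ta.11386.2.S1_a_at (1.05) and the Rubisco large subunit (-2.24). In the interaction, HEMA1 Ta.3243.1.S1_x_at (1.02) and ATPD Ta.8718.2.S1_at (1.06) were called without wild-type water stress replicate 2, and TAPX Ta.11386.2.S1_a_at (1.26) without mutant water stress replicate 3.

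**Figure D4:**
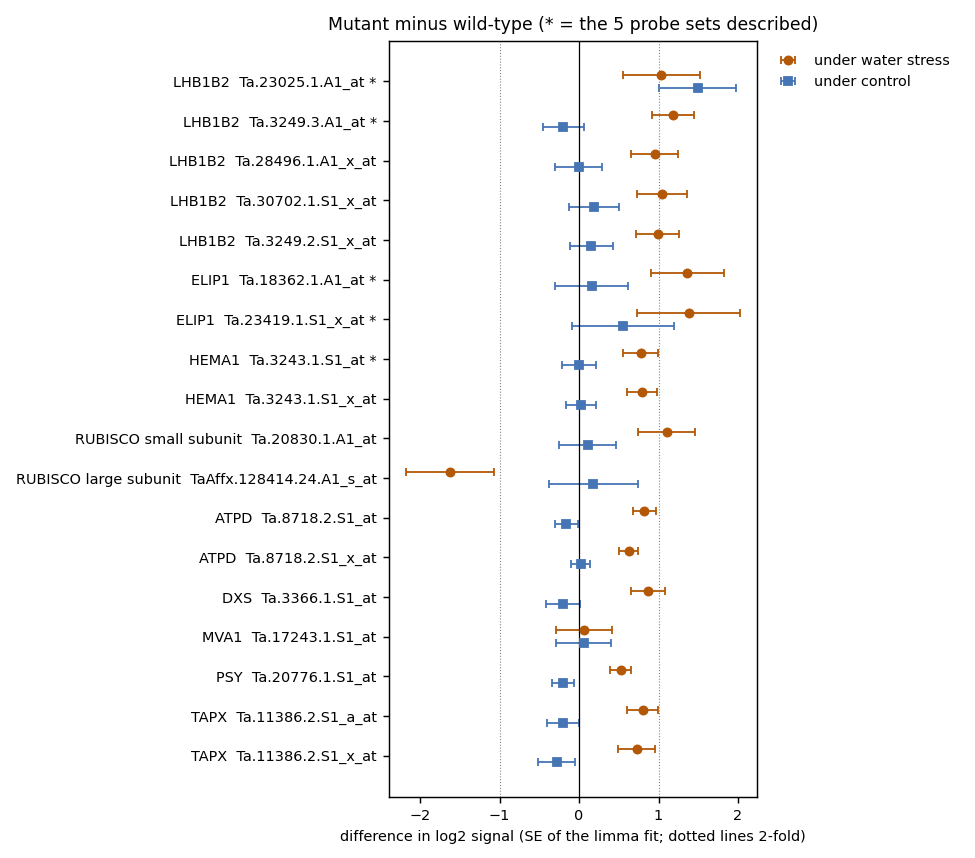
Mutant minus wild-type in log2 signal (horizontal axis), with the SE of the limma fit, under water stress (orange circles) and under control (blue squares), for the same 18 probe sets. Dotted lines mark 2-fold. Under control all points but that of Ta.23025.1.A1_at lie within 2-fold, and under water stress all but the Rubisco large subunit lie to the right of 0.

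Across the 12 arrays, LHB1B2 Ta.3249.3.A1_at and HEMA1 varied together (Pearson r = 0.95), also after the group means were taken out (r = 0.93). The second value rests mostly on the wild-type water stress arrays, which had the widest spread (SD 0.69 and 0.59). In mutant water stress the highest array was replicate 1 for LHB1B2 and replicate 3 for HEMA1. The 2 ELIP1 probe sets varied together (r = 0.97 and 0.98 in the same way), and ELIP1 Ta.18362.1.A1_at varied with neither LHB1B2 Ta.3249.3.A1_at (r = -0.15) nor clearly with HEMA1 (r = -0.38). LHB1B2 Ta.23025.1.A1_at had r = 0.60 with both Ta.3249.3.A1_at and HEMA1. The arrays share groups and scaling, and the 2 ELIP1 probe sets may share target copies, so these values are descriptions over 12 arrays.

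**Figure D5:**
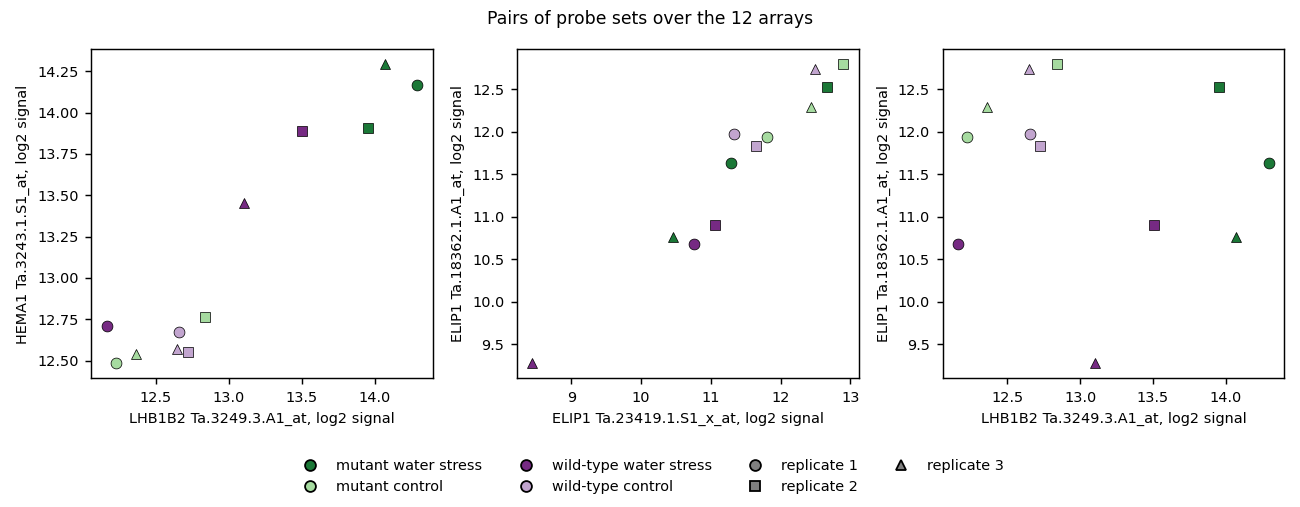
Log2 MAS5 signals of pairs of probe sets over the 12 arrays, coloured by group, with symbols for replicates. LHB1B2 and HEMA1 (left) and the 2 ELIP1 probe sets (middle) lie along a line, while LHB1B2 and ELIP1 (right) do not.

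Among up to 194 kept probe sets that the study named and that lie outside each probe set's own cluster, the most alike over the 12 arrays were found by Pearson r. For HEMA1 they were DXS (r = 0.97), PSY (0.97) and PTAC16, a protein of the plastid transcription complex (0.97). For LHB1B2 Ta.3249.3.A1_at they were PTAC16, LHB1B2 Ta.28496.1.A1_x_at and HEMA1 (all 0.95). For Ta.23025.1.A1_at they were SMO1-2, a sterol methyl oxidase (0.87), the Rubisco small subunit (0.80) and LHB1B2 Ta.30702.1.S1_x_at (0.75). For both ELIP1 probe sets the other ELIP1 probe set came first, followed by 2 probe sets of the plasma membrane aquaporin PIP2, at 0.83 and 0.80 for Ta.18362.1.A1_at and 0.73 and 0.70 for Ta.23419.1.S1_x_at. The candidates were named by the study for their changes on these arrays, so high values are common among them.

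Genes of cell wall synthesis, the only list at hand that touches other leaf tissue, also differed between the groups. The summed signal of 3 probe sets for CESA1 and CESA3, cellulose synthases of the primary wall of growing cells in general, and 1 for IRX9, which in Arabidopsis makes xylan of secondary walls in vascular tissue, was 6038 to 6571 in mutant water stress, 3720 to 4178 in mutant control, 9650 to 11388 in wild-type water stress and 3483 to 4003 in wild-type control. IRX9 alone read 312 to 845 in mutant water stress, 414 to 497 in mutant control, 1641 to 1903 in wild-type water stress and 322 to 445 in wild-type control, so its groups overlapped in the mutant and not in the wild-type. All 4 probe sets were kept and had been chosen by the study on these arrays, and their part in the differences of LHB1B2, ELIP1 and HEMA1 was not tested.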

How the data were processed

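Total RNA of flag leaves was labelled and hybridized to the Affymetrix Wheat Genome Array, 1 array per pool and 12 arrays in all. The deposited values are linear intensities, which the submitters' processing notes credit to MAS5; per the file, each array has a 2% trimmed mean of 500.3. The study's methods describe RMA values for its own analysis, which were not used here. The other files given, which pair 1273 probe sets with gene symbols, matched 0 probe sets to the 8 pathway patterns, so gene names are those of the study.

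Intensities were log2 transformed with no offset. The 111 control probe sets were left out, and the filter required signals above the 60th percentile of the array on every replicate of 1 group or more. One model with 4 group means was fitted with limma 3.58.1 (R 4.3.3), with an intensity trend, and p-values were adjusted over the 24590 kept probe sets. The fit was tested on simulated data. Summaries used Python 3.11.15 and figures matplotlib 3.10.9. The number of arrays limits the precision.

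Probe sets named were the 5 described, all others of their clusters, the study's photosynthesis section with TAPX, and for each of the 5 the 3 named probe sets most alike by Pearson r. Members and lists were chosen with earlier results of these data known. Alternatives were quantile normalization, no filter, only the brightest 40% by mean signal, an offset of 32, no trend and only the arrays compared. Further ones were the methods' t-test, the replicate number as a block and each array left out in turn. That t-test was a Welch test on the MAS5 signals, not on the study's RMA values.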

Additional observations from a re-analysis of the deposited data

How the results depend on the processing

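Of 515 recomputed differences of the 5 probe sets, 514 moved by less than the SD between replicates, and 0 calls changed sign. Many of them could not move. Settings that keep the same signals, or that leave out an array outside the comparison, return the same group means. The tally is therefore no measure of how firm the calls are. Between genotypes under water stress, LHB1B2 Ta.3249.3.A1_at was called in 12 of 21 alternatives. Under the methods' t-test, adjusted in the same way, 0 of the 5 were called in the mutant, 0 in the wild-type and 0 between genotypes under water stress, and of the 13 other photosynthesis probe sets 1 was called in the mutant, against 0 for the wild-type. Over all kept probe sets it called 77 in the mutant instead of 2191 and 213 in the wild-type instead of 1787. Between genotypes under water stress it called 0 instead of 174. It was run on MAS5 signals, so these counts are no repeat of the study's own from RMA values. Fitted without the intensity trend, 0 of the 5 were called between genotypes under water stress and 0 probe sets in the interaction instead of 39. With only the arrays compared, 0 of the 5 were called between genotypes under water stress and 1 under control (LHB1B2 Ta.23025.1.A1_at), and over all kept probe sets 5 and 53. Between genotypes under control, 2 probe sets were called with no filter and 2 with an offset of 32, instead of 0, and in the interaction 19 with no filter. The causes were not tested.

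With each array left out in turn, the members called numbered 2 to 2 in the mutant, 1 to 2 in the wild-type, 0 to 2 between genotypes under water stress, 0 to 0 under control and 0 to 1 in the interaction. The other photosynthesis probe sets called numbered 12 to 13, 1 to 4, 0 to 4, 0 to 0 and 0 to 2 in the same order, the highest without wild-type water stress replicate 1 for the wild-type and without wild-type water stress replicate 2 for the last. Over all kept probe sets the ranges were 1882 to 2335 in the mutant, 1554 to 1920 in the wild-type, 75 to 290 between genotypes under water stress (lowest without wild-type water stress replicate 3, highest without replicate 2), 0 to 12 under control and 0 to 148 in the interaction (highest without mutant water stress replicate 3). Without replicate 3 of mutant water stress and replicate 2 of wild-type water stress together, chosen after the data were seen, 2 of the 5 were called in the wild-type, 2 between genotypes under water stress and 1 in the interaction, with 7 and 4 of the 13 others in the last 2, and over all kept probe sets 478 between genotypes under water stress, 24 under control and 364 in the interaction.

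The labels number the replicates alike in all groups, but same-numbered arrays did not deviate together (correlations of deviations from the group means between -0.19 and 0.09), so the numbers are not known to pair the pools. With a replicate block, 0 probe sets were called in the interaction instead of 39, and the counts of the 5 members called did not change. With 3 pools a group, the dim LHB1B2 probe set Ta.23025.1.A1_at and the widely spread ELIP1 probe sets have the least certain values.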
